A study of Schizosaccharomyces pombe with 16 samples.

Results

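The genes described are 60 genes for proteins of the cytoplasmic ribosome of the fission yeast Schizosaccharomyces pombe, 41 for the large subunit and 19 for the small subunit. They were taken by their identifiers from a list, not by their measured values, and are 60 of the 7019 genes in the count table and 60 of its 5104 nuclear protein-coding genes. All 60 were found, all 60 passed the filter on low counts, and the annotation names each as a ribosomal protein, with 1 of them, rpl701, also annotated as a subunit of RNase MRP. By the coordinates in the table, 30 members lie on chromosome I, 17 on II and 13 on III, 8 overlap another gene on the same strand and 22 on the opposite strand. A further 83 cytoplasmic ribosomal protein genes were kept apart for comparison, so the members are a part of the ribosomal protein genes and not all of them.

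Total RNA depleted of ribosomal RNA was sequenced in 16 libraries, 2 for each of 8 groups. Wilmar-P and Wilmar-A are isolates of genotype h90, and the laboratory strain 972h- has genotype h-. Wilmar-P and Wilmar-A grew for 4 h at 32 degrees in YES medium (yeast extract with supplements) holding 3% glucose, were washed, and were then shifted for a further 4 h to 3% glycerol without glucose (glucose-starved), to 3% glycerol with 0.1% glucose (glucose-deficient) or to fresh 3% glucose (glucose). Wilmar-P and the laboratory strain were also grown for 4 h in molasses. No allele was introduced in any group. Libraries of the laboratory strain in other media are not analysed here. The laboratory strain differs from Wilmar-P in mating type as well as in origin, so these cannot be told apart. Nothing in the labels says that the 2 replicates of a group were separate cultures, so the p-values measure only the spread between these libraries.

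A ribosome is built of ribosomal RNA and of ribosomal proteins, 1 copy of most of them in each particle, and the large subunit forms peptide bonds while the small subunit reads the messenger RNA. In yeasts the genes for these proteins are among the most strongly transcribed, many of them occur as paralogous pairs with nearly the same protein product, and in budding yeast their transcription is known to drop when nutrients run out, under the TOR and protein kinase A pathways. In fission yeast many of their promoters hold the HomolD box, which takes the place of a TATA box, and the HomolE box next to it.

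Promoter sequences are printed for 2 of the gene pairs whose copies moved apart, for rps502, the member called in molasses, and for rps1401, the member with the lowest log2 fold change in Wilmar-P, starved over glucose. Each is the 150 bases before the gene start of the RefSeq annotation, which need not be the start used for the deposited counts, 5′ to 3′ on the strand of the gene, from the RefSeq genome (assembly ASM294v3). Capitals mark the HomolD box (CAGTCACA, or TGTGACTG on the other strand) and the HomolE box (CCCTACCCT, or AGGGTAGGG on the other strand). The first pair are both genes for the small subunit protein eS8, rps802 (SPAC521.05, chrI:849333-849482, + strand) and rps801 (SPAC2C4.16c, chrI:4287433-4287582, - strand).
rps802: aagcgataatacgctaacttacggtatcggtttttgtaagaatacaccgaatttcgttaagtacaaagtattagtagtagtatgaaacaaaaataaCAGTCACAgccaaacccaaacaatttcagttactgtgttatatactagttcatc
rps801: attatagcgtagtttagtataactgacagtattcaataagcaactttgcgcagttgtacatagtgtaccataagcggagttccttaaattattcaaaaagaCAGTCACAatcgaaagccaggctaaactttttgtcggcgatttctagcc

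The second pair encode the large subunit protein eL21, rpl2101 (SPBC365.03c, chrII:2503781-2503930, - strand) and rpl2102 (SPAC959.08, chrI:3400378-3400527, + strand).
rpl2101: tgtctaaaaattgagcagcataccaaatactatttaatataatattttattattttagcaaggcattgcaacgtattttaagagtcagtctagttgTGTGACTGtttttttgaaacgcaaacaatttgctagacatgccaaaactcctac
rpl2102: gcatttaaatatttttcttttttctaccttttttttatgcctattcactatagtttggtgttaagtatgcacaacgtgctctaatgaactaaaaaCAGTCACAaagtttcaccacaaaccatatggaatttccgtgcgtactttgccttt

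The single genes are rps502 (SPAC328.10c, chrI:3497401-3497550, - strand), for uS7 of the head of the small subunit, and rps1401 (SPAC3H5.05c, chrI:3436094-3436243, + strand), for uS11 of the platform of the small subunit.
rps502: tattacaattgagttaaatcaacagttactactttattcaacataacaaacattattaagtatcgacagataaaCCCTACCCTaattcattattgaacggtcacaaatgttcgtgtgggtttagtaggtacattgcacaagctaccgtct
rps1401: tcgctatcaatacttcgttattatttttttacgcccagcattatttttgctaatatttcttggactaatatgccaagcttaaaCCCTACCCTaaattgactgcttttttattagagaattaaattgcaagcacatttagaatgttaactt

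The HomolD box was found within 250 bases before the gene start in 42 of 60 members (70%) and the HomolE box in 24 of 60 (40%). Of the 83 other cytoplasmic ribosomal protein genes 49 (59.0%) held HomolD and 25 (30.1%) HomolE, and of 76 mitochondrial ribosomal protein genes 0 and 2. Over 5103 protein-coding genes the shares were 2.63% and 1.49%. In the members HomolD lay at a median of 42.5 bases before the start, with 40 of 42 between 35 and 60 bases, and in all 17 members with both boxes HomolE was the farther from the start. Neither box was found in 11 members. Of the 15 members that fell in starvation 11 held HomolD and 5 HomolE, and of the 45 others 31 and 19. The 2 patterns do not overlap each other, a match is a description and not a site or a cause, and its absence says only that these letters were not in the window.

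The 16 libraries held between 13246648 and 18164249 counts, of which 88.9% to 98.0% lay in nuclear protein-coding genes and 0.22% to 9.77% in ribosomal RNA genes, highest in Wilmar-P molasses replicate 2. The first replicates of Wilmar-P glucose, Wilmar-P glucose-deficient and Wilmar-A glucose-deficient are labelled as unstranded, and the test carried a term for this. Wilmar-A glucose replicate 1 is labelled as stranded, but 8.95% of its counts fell in non-coding genes other than ribosomal RNA, close to the labelled unstranded libraries (8.6% to 8.8%) and above the other 12 (1.33% to 2.6%). Those 4 libraries are drawn with open symbols, and counts are also given below with that library coded as unstranded and from the stranded libraries alone. The glucose-repressed gene fbp1 checked the media, at 384 to 1034 CPM (counts relative to the library size, scaled by TMM, the trimmed mean of M values) in glucose-starved libraries and 305 to 757 in glucose-deficient libraries, against 5.4 to 20.4 in glucose.

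The members together took between 7.24% and 16.1% of all protein-coding counts. Their share was lowest after the shift to glycerol. In Wilmar-P the 2 starved libraries gave 8.70% and 10.3%, the deficient libraries 12.5% and 13.3%, and the glucose libraries 12.5% and 16.1%. For Wilmar-A the values were 8.24% and 7.24% when starved, 12.1% and 12.8% when deficient and 12.1% and 15.1% with glucose. All 4 glucose-starved libraries lay below the 12 others, and the glucose-deficient libraries overlapped the range of the glucose libraries.

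The mean share of starved libraries was 0.667 times that of glucose libraries in Wilmar-P and 0.570 times in Wilmar-A. The spread within glucose was large, since in both isolates replicate 1, with the high non-coding share, was below replicate 2, and against replicate 2 alone the ratios were 0.592 in Wilmar-P and 0.514 in Wilmar-A. Cultures in molasses gave 15.5% and 15.2% in Wilmar-P, against 12.7% and 12.2% in the laboratory strain, with no overlap between the 2 groups. The 83 other cytoplasmic ribosomal protein genes did overlap in molasses. They took 12.6% and 11.8% in Wilmar-P and 10.04% and 13.5% in the laboratory strain. These are shares of the RNA sequenced, and with bulk RNA a lower number of these transcripts per cell and fewer cells that hold them cannot be told apart. No test is attached to the share, as it is a sum over chosen genes.

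**Figure D1:**
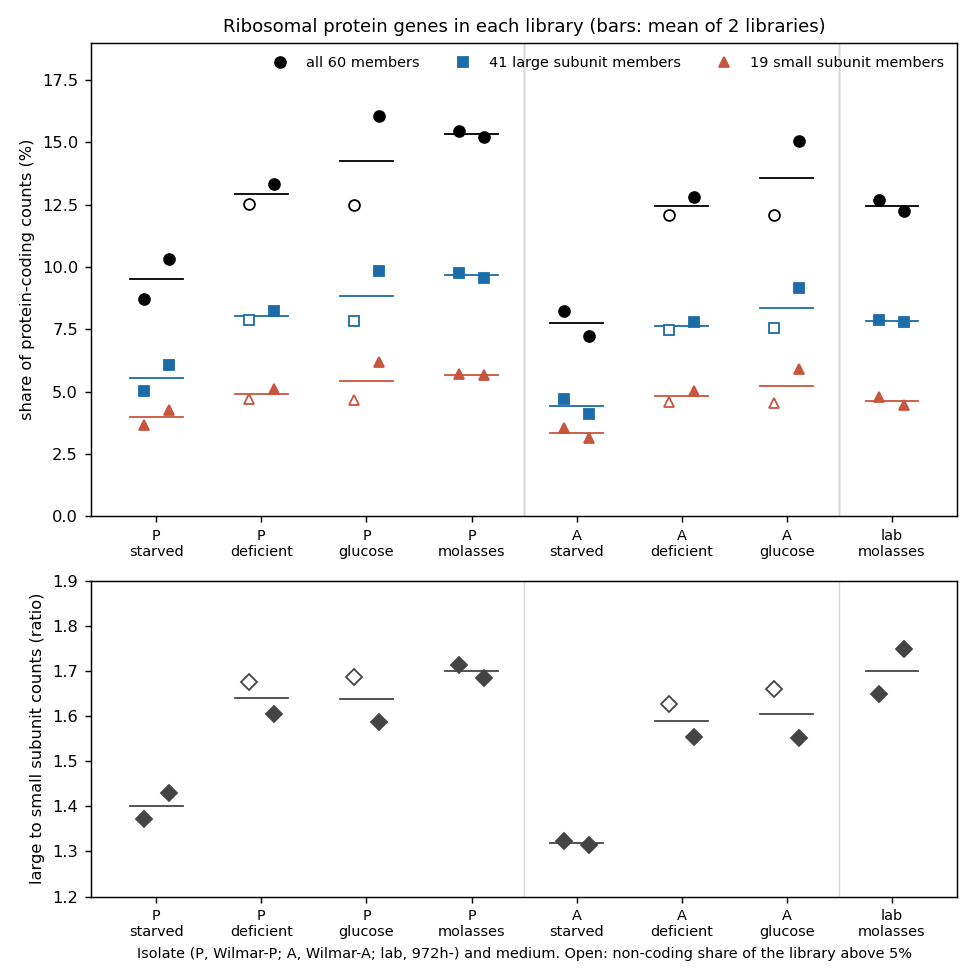
Share of nuclear protein-coding counts (percent, vertical axes) held by the 60 members, the large subunit members and the small subunit members, and the ratio of large to small subunit counts, in each library by strain and medium; each point is 1 library, bars are group means, and open symbols are the 4 libraries with over 5% of counts in non-coding genes. The 4 glucose-starved libraries sit between 7.24% and 10.3%, below the other 12 libraries, and have the 4 lowest ratios of large to small subunit counts, between 1.31 and 1.43.

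Glucose starvation lowered a minority of the members, and none was called higher. In Wilmar-P 10 of 60 members fell past an adjusted p of 0.05 and a 2-fold change when starved cells were set against glucose (edgeR quasi-likelihood test, Benjamini-Hochberg adjustment over 6662 genes), and in Wilmar-A 15 of 60 did. Of all protein-coding genes 13.9% were called lower for Wilmar-P and 18.6% for Wilmar-A, so the members' shares, 16.7% and 25%, were of the order of the background. The shift was broad and moderate, as 53 of 60 members in Wilmar-P and 52 of 60 in Wilmar-A had a log2 fold change below 0, with member medians of -0.45 and -0.56, against -0.03 and -0.11 over all protein-coding genes.

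These counts moved with single libraries. For Wilmar-P 13 members were lower without glucose replicate 1, 0 without glucose replicate 2, 3 without starved replicate 1 and 17 without starved replicate 2. For Wilmar-A the counts were 22 without glucose replicate 1, 7 (with 2 higher) without glucose replicate 2, 8 without starved replicate 1 and 7 without starved replicate 2. From the stranded libraries alone, a choice made after seeing the data, 12 fell in Wilmar-P and 20 in Wilmar-A, and with Wilmar-A glucose replicate 1 coded as unstranded 11 and 21. The edgeR test called 0 members higher in either isolate, beside 16.1% and 16.2% of protein-coding genes. At an unadjusted p below 0.05, 1 member was higher in starved Wilmar-P and 2 in Wilmar-A, beside 24.7% and 26.5% of protein-coding genes, and DESeq2 called 0 members higher in either isolate. Scaling to the total of coding counts instead of TMM lowered the median of all protein-coding genes to -0.37 in Wilmar-P and -0.62 in Wilmar-A, and with it the member medians to -0.80 and -1.03 and the counts to 22 and 32 members lower, beside 21.9% and 32.9% of protein-coding genes called lower under that scaling, and the member medians were below those of all genes under both scalings.

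The 10 members that fell in Wilmar-P were all among the 15 that fell in Wilmar-A, 100% of the first list and 66.7% of the second. They encode uL1 (rpl102), uL22 (rpl1702), eL18 (rpl1801), eL19 (rpl1902), eL24 (rpl2401), uL2 (rpl803), eS1 (rps101), uS11 (rps1401), eS4 (rps403) and eS8 (rps802). The others called in Wilmar-A were rpl2101 (eL21), rpl2702 (eL27), rpl401 (uL4), rpl701 and rpl902 (uL6), whose log2 fold changes in Wilmar-P were between -0.99 and -0.58. The 2 contrasts share no library, and across the 60 genes, which are not independent replicates, their log2 fold changes had a Pearson r of 0.905 and a Spearman rho of 0.909. Over protein-coding genes the difference between replicates correlated between the isolates at 0.32 when starved and 0.92 in glucose, and the part of this in the likeness was not tested.

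Among those that fell, rps1401 (chromosome I, 3436186 to 3436825, + strand, ASM294v2) had 107.3 and 180 CPM in starved Wilmar-P, against 376 and 785 in glucose. In Wilmar-A it had 173 and 156 CPM when starved and 228 and 612 in glucose. Both starved libraries were below both glucose libraries in each isolate, with a log2 fold change of -2.37 ± 0.43 (SE, adjusted p = 0.00185) in Wilmar-P and -1.35 ± 0.40 (adjusted p = 0.0180) in Wilmar-A by edgeR. The gene overlaps pol1 and aar2 in the annotation, and reads in an overlap were counted for each gene. It is the minor copy for uS11. The other copy, rps1402, is not a member, and the 2 proteins are 100% identical. Across the libraries rps1402 held 53.5% to 85.7% of the pair's counts per kilobase.

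Members include 3 genes for uL2, a protein next to the peptidyl transferase centre. The copies rpl801 and rpl802 were not called in either isolate, and rpl801 had a higher CPM than rpl803 in every library. The copy that fell was rpl803 (SPBC839.04, chromosome II, 601209 to 602186, + strand, ASM294v2). It had 754 and 1046 CPM in starved Wilmar-P, against 1269 and 2000 in glucose. In Wilmar-A the starved libraries had 601 and 486 CPM and the glucose libraries 1212 and 1913. The groups did not overlap in either isolate, and the log2 fold changes were -1.11 ± 0.29 (edgeR adjusted p = 0.0122) in Wilmar-P and -1.52 ± 0.27 (adjusted p = 0.00142) in Wilmar-A.

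For uL1, the protein of the L1 stalk through which spent tRNA leaves the ribosome, the minor copy rpl102 had 75 and 141 CPM in starved Wilmar-P, against 206 and 324 in glucose. Starved Wilmar-A had 66 and 68 CPM, against 174 and 225 in glucose. This copy fell by 1.41 ± 0.31 (edgeR adjusted p = 0.00506) on the log2 scale in Wilmar-P and by 1.57 ± 0.29 (adjusted p = 0.00192) in Wilmar-A, while the major copy rpl101 had log2 fold changes of -0.58 and -0.60 that did not pass the test.

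In Wilmar-A the largest fall was that of rpl1902 (SPCC1682.14), for eL19, a protein that bridges the subunits. It had 189 and 191 CPM in starved Wilmar-A, against 576 and 578 in glucose, and 183 and 396 CPM in starved Wilmar-P, against 616 and 757. The 4 starved libraries were all below the 4 glucose libraries, and the log2 fold changes were -1.60 ± 0.34 (edgeR adjusted p = 0.00366) in Wilmar-A and -1.18 ± 0.35 (adjusted p = 0.0232) in Wilmar-P. Likewise rpl2401, for the bridge protein eL24, had 139 and 250 CPM in starved Wilmar-P, against 349 and 497 in glucose, a log2 fold change of -1.20 ± 0.30 (adjusted p = 0.0107), and rps403, for eS4, had 1044 and 1419 CPM, against 1613 and 3161, a log2 fold change of -1.30 ± 0.37 (adjusted p = 0.0197).

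**Figure D2:**
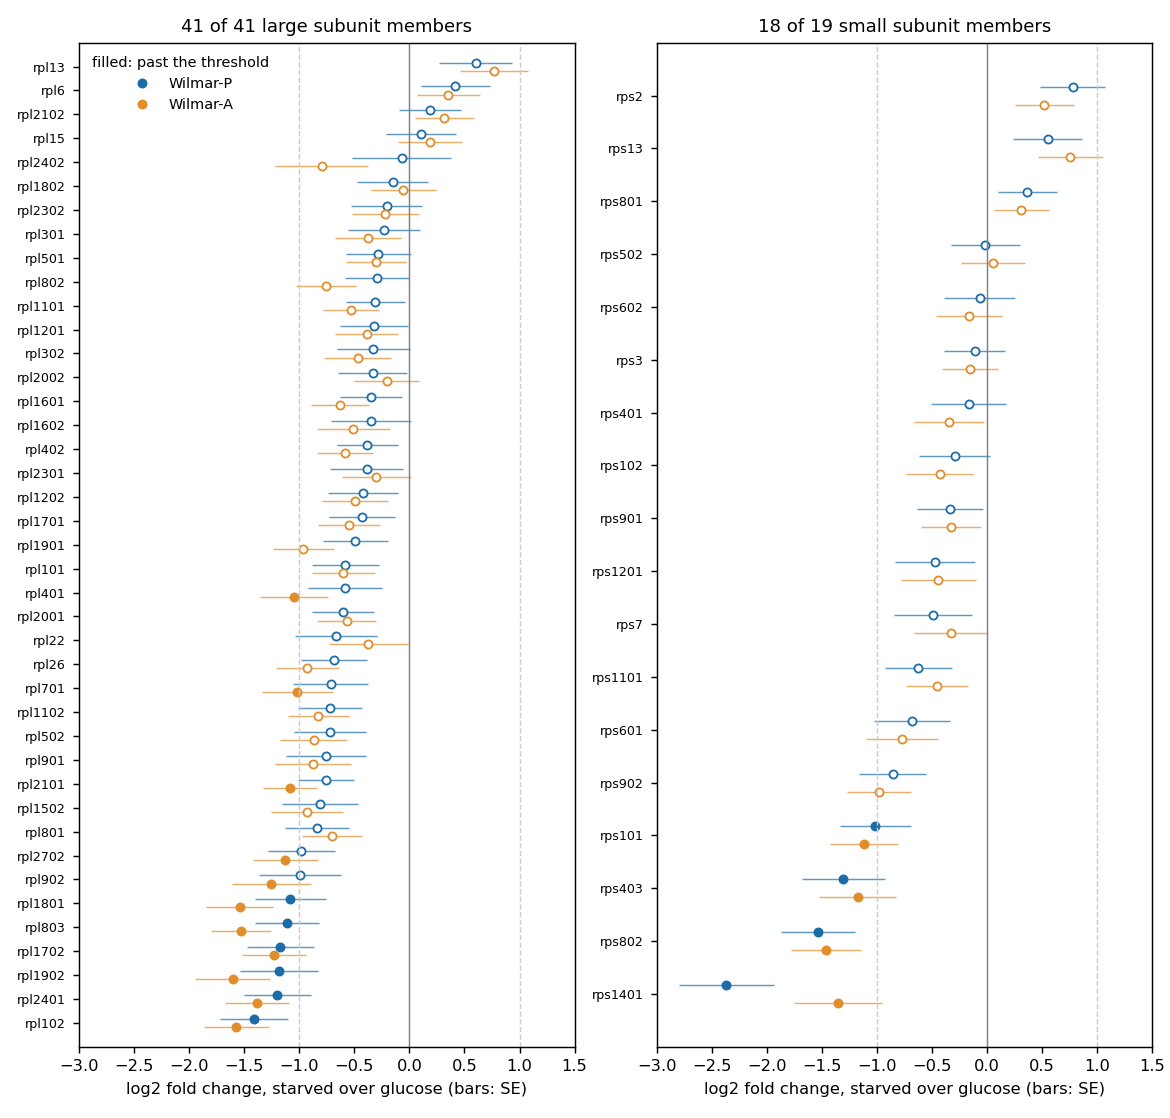
Log2 fold change, starved over glucose (horizontal axes), of each of the 41 large subunit members (left) and of 18 of the 19 small subunit members (right), sorted by the value in Wilmar-P, with a point for Wilmar-P and a point for Wilmar-A; bars are standard errors from the edgeR fit, filled points passed the test, and dashed lines mark a 2-fold change. Of all 60 members, of which 1 is not drawn, 52 had values below 0 in both isolates and 7 above 0 in both, with rps1401 at -2.37 in Wilmar-P and -1.35 in Wilmar-A and rpl13 at 0.60 and 0.77.

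At the other end, 7 members had log2 fold changes above 0 in both isolates, namely rpl13, rpl6, rpl2102, rpl15, rps2, rps13 and rps801, and none passed the test. The gene for uS15, rps13 (SPAC6F6.07c, chromosome I, 2745872 to 2746733, - strand, ASM294v2), had 6223 and 6190 CPM in starved Wilmar-P, against 2552 and 4580 in glucose. Starved Wilmar-A had 5771 and 5729 CPM, against 2380 and 4433. The starved libraries were above the glucose libraries in both, with log2 fold changes of 0.55 ± 0.32 (edgeR adjusted p = 0.207) and 0.76 ± 0.30 (adjusted p = 0.0554). The annotation places rps13 in an overlap with cdc16 on the same strand.

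The large subunit gene rpl13 (eL13) had 4727 and 4889 CPM in starved Wilmar-P, against 1960 and 3166 in glucose, and 4729 and 4598 CPM in starved Wilmar-A, against 1972 and 3509. Its log2 fold changes were 0.60 ± 0.33 (edgeR adjusted p = 0.188) in Wilmar-P and 0.77 ± 0.31 (adjusted p = 0.0594) in Wilmar-A. For rps2, whose product uS5 lies at the messenger RNA entry of the small subunit, the values were 3632 and 4798 CPM in starved Wilmar-P, against 1883 and 2389 in glucose, and 3218 and 3373 CPM in starved Wilmar-A, against 1855 and 2746. The groups of rpl13 and rps2 did not overlap in either isolate, but no member above 0 passed the test. The next were rpl6 (0.42 in Wilmar-P and 0.35 in Wilmar-A), rps801 (0.36 and 0.31) and rpl2102 (0.19 and 0.32).

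**Figure D3:**
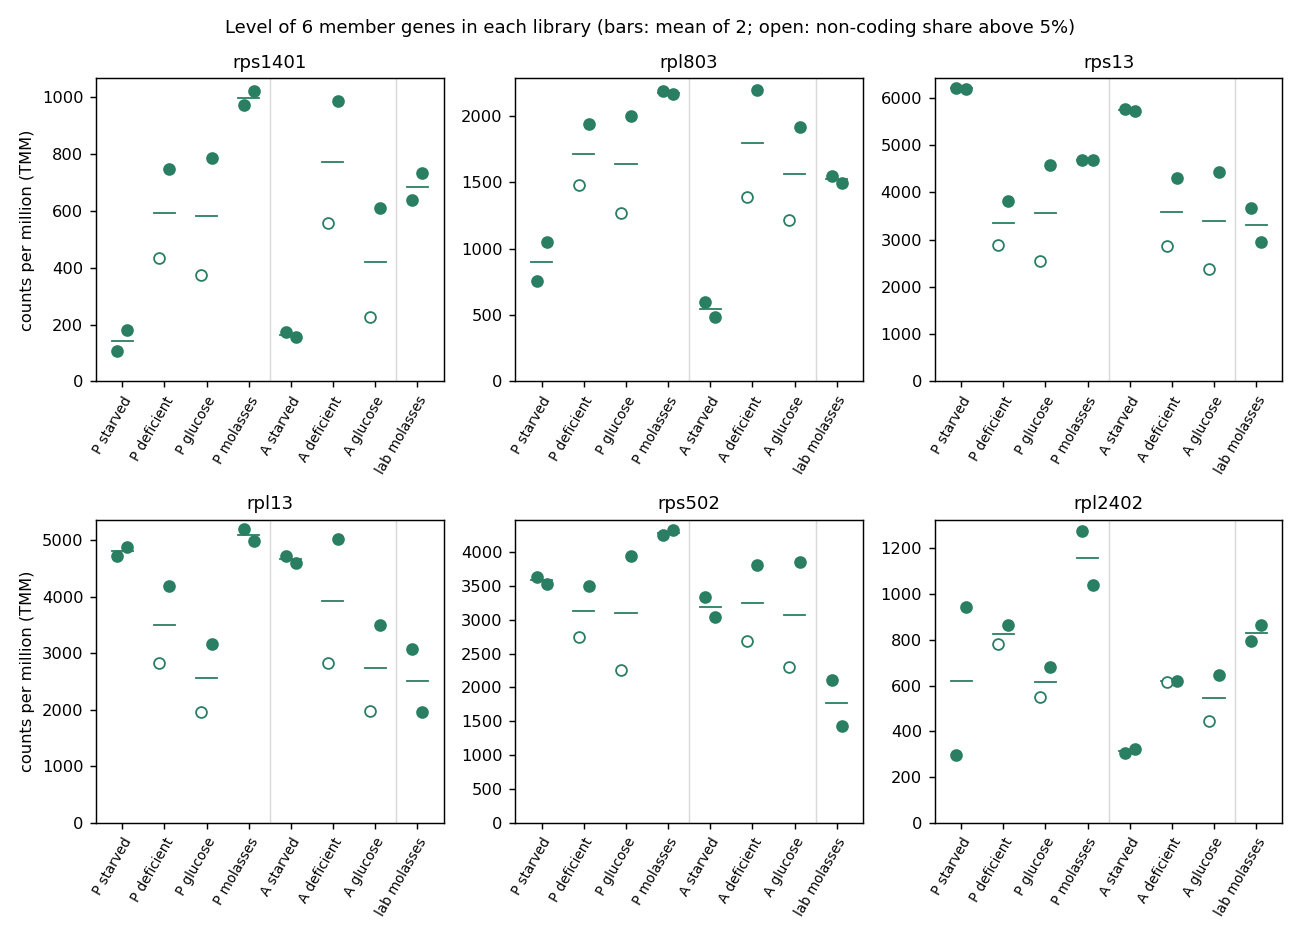
Level in CPM (vertical axes, linear and starting at 0) of rps1401, rpl803, rps13, rpl13, rps502 and rpl2402 in each library, by strain and medium; each point is 1 library, bars are group means, and open symbols are the 4 libraries with over 5% of counts in non-coding genes. In rps1401 the starved libraries lie at 107.3 to 180 CPM, below all other libraries, and in rps13 they lie at 5729 to 6223 CPM, above all other libraries.

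Per kilobase of annotated length, the highest members, averaged over the 16 libraries, were rps13 (6698 CPM per kilobase), rps7 (5773), rps502 (4174), rpl13 (4104), rpl1201 (3973) and rpl1802 (3470). The lowest were rpl401 (630 CPM per kilobase), rps101 (588) and rpl102 (266). The highest library of a member was between 1.57 and 9.51 times its lowest, with the widest range in rps1401.

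Large and small subunit genes moved in the same direction but not by the same amount when shares of counts were compared. In starved Wilmar-P the 41 large subunit genes took 5.03% and 6.07% of protein-coding counts, against 7.84% and 9.85% in glucose, and in starved Wilmar-A 4.70% and 4.11%, against 7.55% and 9.15%. The 19 small subunit genes took 3.67% and 4.25% in starved Wilmar-P, against 4.64% and 6.20% in glucose, and 3.55% and 3.13% in starved Wilmar-A, against 4.55% and 5.90%. The starved mean was 0.628 times the glucose mean for the large and 0.730 times for the small subunit in Wilmar-P, and 0.527 and 0.639 times in Wilmar-A.

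The ratio of large to small subunit counts was 1.37 and 1.43 in starved Wilmar-P, against 1.69 and 1.59 in glucose, and 1.32 and 1.31 in starved Wilmar-A, against 1.66 and 1.55. The 4 starved libraries had the 4 lowest ratios of the 16. The gene rps13 alone held 15.7% and 12.9% of the small subunit counts in starved Wilmar-P, against 7.60% and 8.55% in glucose, and 15.4% and 15.6% in starved Wilmar-A, against 7.40% and 8.54%. With rps13 left out, a choice made after seeing the data, the ratio was 1.63 and 1.64 in starved Wilmar-P, against 1.83 and 1.74 in glucose, and 1.56 and 1.56 in starved Wilmar-A, against 1.79 and 1.70.

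Gene by gene, the large subunit genes had median log2 fold changes of -0.49 in Wilmar-P and -0.63 in Wilmar-A, and the small subunit genes -0.34 in both. Over all protein-coding genes the medians were -0.03 and -0.11. In Wilmar-P 6 of 41 large (14.6%) and 4 of 19 small (21.1%) subunit genes fell, beside 13.9% of protein-coding genes. In Wilmar-A 11 of 41 (26.8%) and 4 of 19 (21.1%) fell, beside 18.6%. Between Wilmar-P and the laboratory strain in molasses the 2 medians were 0.53 and 0.52, against 0.05 over all protein-coding genes. No p-value is given for the difference between the subunits, since it is a comparison over chosen genes.

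The paralogous copies of 1 protein moved apart in a minority of pairs. Of the members, 47 belong to 23 families with more than 1 listed copy, making 25 pairs, and in 8 pairs the log2 fold changes of the copies differed by over 1 in at least 1 of 4 comparisons (starved over glucose in each isolate, and Wilmar-P in molasses over the laboratory strain and over glucose). These pairs were picked by that difference, so their values are a description without a test. The largest gap was in eS8, where the log2 fold change of rps802 minus that of rps801 was -1.90 in starved over glucose Wilmar-P and -1.77 in Wilmar-A.

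Shares within a family were taken from counts per kilobase. The copy rps802 held 17.1% and 21.2% of its family in starved Wilmar-P, against 40.5% and 45.6% in glucose, and 19.9% and 17.5% in starved Wilmar-A, against 40.02% and 46.5%. In CPM rps802 had 772 and 1068 in starved Wilmar-P, against 1523 and 2742 in glucose, while rps801 had 3172 and 3366, against 1897 and 2777. So 1 copy fell by 1.53 ± 0.34 (edgeR adjusted p = 0.00525) on the log2 scale and the other had a log2 fold change of 0.36 ± 0.27 (adjusted p = 0.328). Their proteins are 99.0% identical, and the promoter of each holds a HomolD box.

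In eL21, rpl2101 held 17.3% and 24.2% of its family in starved Wilmar-P, against 39.0% and 33.4% in glucose, and 18.6% and 18.3% in starved Wilmar-A, against 39.9% and 35.8%. In eL18, rpl1801 held 25.8% and 30.2% in starved Wilmar-P, against 45.0% and 45.0% in glucose, and 21.6% and 20.2% in starved Wilmar-A, against 45.4% and 40.9%. The starved and glucose libraries did not overlap in any of these 3 families. The proteins of the eL21 copies are 99.4% identical and those of the eL18 copies 95.7%.

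Other pairs passed a difference of 1, starved over glucose, in only 1 isolate. They were rps403 minus rps401 (eS4, -1.14 in Wilmar-P and -0.83 in Wilmar-A), rpl2401 minus rpl2402 (eL24, -1.13 and -0.59) and rpl1502 minus rpl15 (eL15, -0.92 and -1.12). For eL24 the 2 starved Wilmar-P libraries lay far apart, with rpl2402 at 295 and 942 CPM. In molasses, Wilmar-P over the laboratory strain, rpl102 minus rpl101 (uL1) was -1.03. Copies share sequence, and reads that map to more than 1 place were not counted. Of the 60 members, 37 held no stretch of 50 bases that recurs elsewhere in the genome and 54 had at most 10% of their length in such stretches. The 6 others include rpl301 (66.8%), rpl302 (56.1%), rpl1201 (85.1%), rpl1202 (73.8%) and rps502 (40.7%), whose counts are uncertain for that reason.

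**Figure D4:**
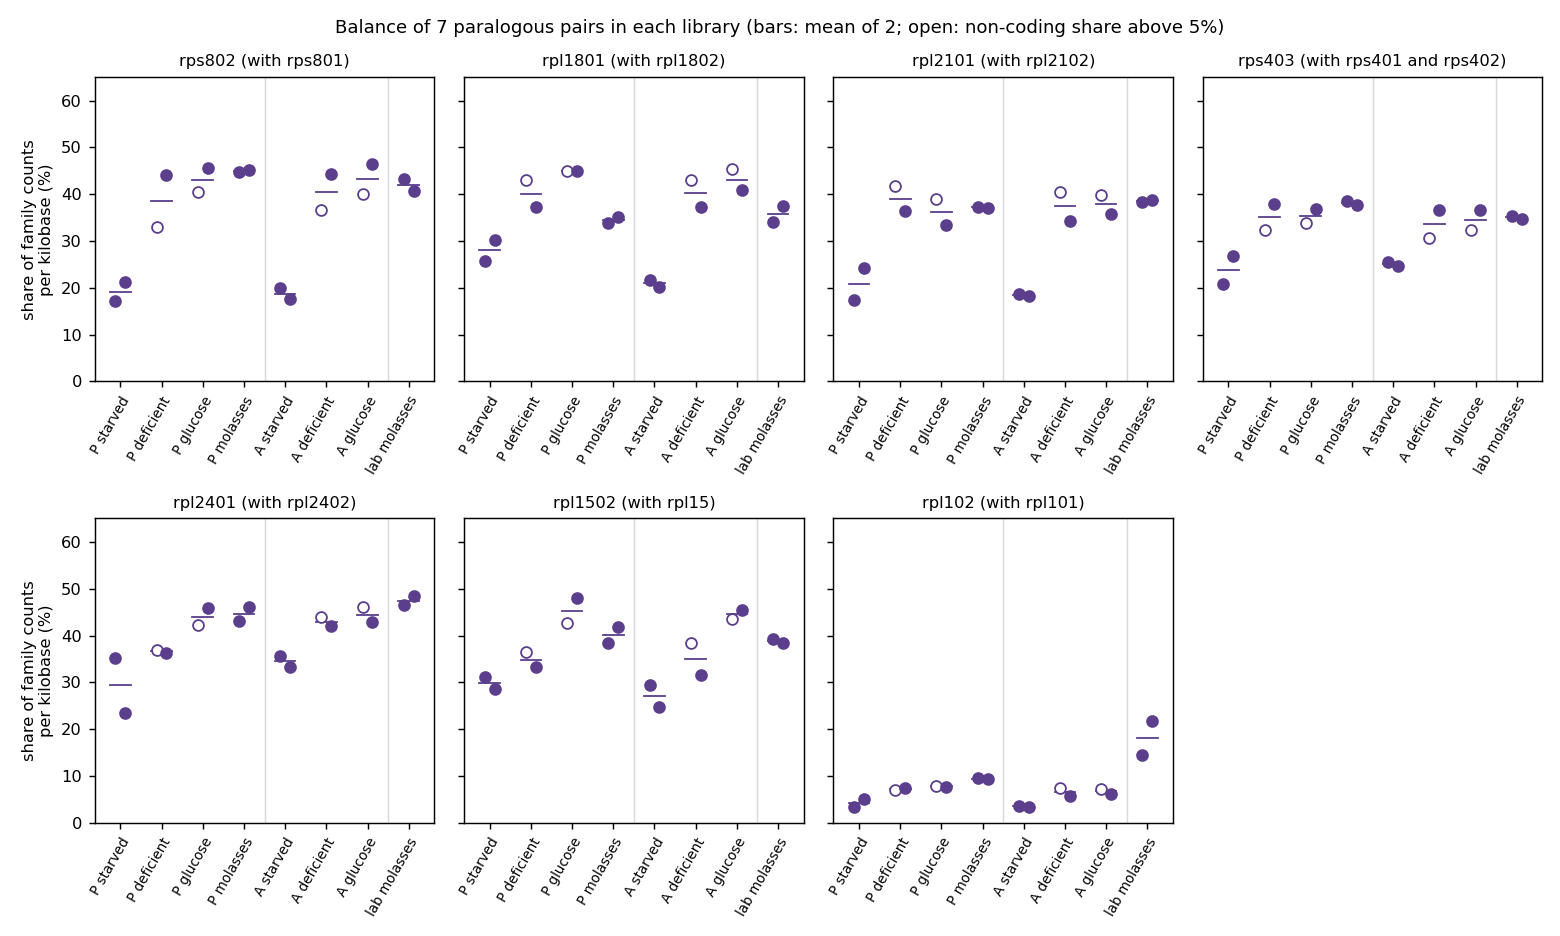
Share of a paralogue family's counts per kilobase (percent, vertical axes) held by 1 named copy of each of 7 pairs in each library, by strain and medium; each point is 1 library, bars are group means, and open symbols are the 4 libraries with over 5% of counts in non-coding genes. The share of rps802 lies between 17.1% and 21.2% in the 4 starved libraries and between 40.02% and 46.5% in the 4 glucose libraries.

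In glucose-deficient medium, where 0.1% glucose was kept, no member passed the test. Against glucose the edgeR quasi-likelihood test called 0 of 60 in Wilmar-P and 0 of 60 in Wilmar-A, beside 2.42% and 9.68% of protein-coding genes called in either direction. At an unadjusted p below 0.05 there were 2 members in Wilmar-P and 11 in Wilmar-A, all higher, beside 14.0% and 18.2% of protein-coding genes higher at that p, and DESeq2 called 0 in Wilmar-P and 1, rps1401, in Wilmar-A. Without Wilmar-A glucose replicate 2 edgeR called 7 members higher in Wilmar-A. Member medians of 0.02 (Wilmar-P) and 0.25 (Wilmar-A) were found, and scaling to coding counts, which lowered the median of all genes to -0.16 and -0.37, turned them to -0.22 and -0.15, below 0. In Wilmar-A the strandedness term covered glucose-deficient replicate 1 but not glucose replicate 1. The Wilmar-A counts, median and log2 fold changes in this comparison therefore rest on the labels. In Wilmar-A rps1401 had 559 and 986 CPM in glucose-deficient medium, against 228 and 612 in glucose, ranges that overlap, with a log2 fold change of 1.27 ± 0.42 (edgeR adjusted p = 0.0661).

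Set against glucose-deficient instead of glucose medium, starvation lowered 8 of 60 members in Wilmar-P, with a median log2 fold change of -0.57, and 22 of 60 in Wilmar-A, with a median of -0.90. The share of all protein-coding genes called lower was 11.6% for Wilmar-P and 10.7% for Wilmar-A. Falls were seen in 15 of 41 large and 7 of 19 small subunit genes of Wilmar-A, led by rps1401 (-2.62 ± 0.44, SE, edgeR adjusted p = 0.0023), rpl803 (-1.97 ± 0.29, adjusted p = 0.00115), rpl1801 (-1.92 ± 0.33, adjusted p = 0.00274) and rpl401 (-1.85 ± 0.33, adjusted p = 0.0034). The last encodes uL4, which lines the exit tunnel, and had 362 and 346 CPM in starved Wilmar-A, against 870 and 1391 in glucose-deficient medium. Leaving out 1 library gave 4 (without deficient replicate 1), 0 (deficient replicate 2), 1 (starved replicate 1) and 15 (starved replicate 2) members lower in Wilmar-P, and 14 (deficient replicate 1), 4 (deficient replicate 2), 10 (starved replicate 1) and 6 (starved replicate 2) in Wilmar-A. With the starved and deficient groups of Wilmar-P fitted alone, 1 member was lower.

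Between the isolates no member passed the test. Wilmar-P over Wilmar-A gave 0 of 60 called by edgeR in starved, in deficient and in glucose cultures, beside 0.118%, 0.0788% and 0.0197% of protein-coding genes called in either direction, and DESeq2 also called 0. At an unadjusted p below 0.05 there were 4 members, all higher in Wilmar-P, in starved cultures, beside 2.44% of protein-coding genes higher at that p, and 0 in the others, beside 3.02% of protein-coding genes in either direction with 0.1% glucose and 5.74% with 3% glucose. The member medians were 0.35 starved, 0.04 deficient and 0.25 with glucose, against 0.04, 0.02 and 0.04 over all protein-coding genes. In glucose the strandedness term covered replicate 1 of Wilmar-P but not replicate 1 of Wilmar-A, so that median rests on the labels. With Wilmar-A glucose replicate 1 coded as unstranded the common dispersion, the spread shared by all genes in the fit, was 0.0447, against 0.1 with the labels as given. Without Wilmar-A glucose replicate 2, 1 member, rps1401, was called higher in Wilmar-P in glucose. The difference between the isolates in the change from glucose to starvation was tested as an interaction. It gave 0 members by edgeR, beside 0% of protein-coding genes, and 0 by DESeq2. At an unadjusted p below 0.05 it gave 0 members, beside 3.43% of protein-coding genes in either direction. The member median was 0.10, and the larger count in starved Wilmar-A is not shown to be a difference between isolates. The gene rpl2402 (eL24, SPCC330.14c, chromosome III, 137970 to 138594, ASM294v2), 1 of the copies that moved apart, had 295 and 942 CPM in starved Wilmar-P, against 306 and 323 in starved Wilmar-A, and its log2 fold changes between the isolates were 0.98 ± 0.42 (edgeR adjusted p = 0.886) starved, 0.41 deficient and 0.25 with glucose, none of them past the test.

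In molasses the members of Wilmar-P over the laboratory strain had a median log2 fold change of 0.53, against 0.05 over all protein-coding genes, and 1 of 60 passed the test, beside 0.552% of protein-coding genes called higher. At an unadjusted p below 0.05, 18 members were higher and 0 lower, beside 7.10% of protein-coding genes higher and 7.27% lower at that p. The 1 member was rps502, for uS7. It had 4245 and 4332 CPM in Wilmar-P, against 2114 and 1433 in the laboratory strain, with a log2 fold change of 1.27 ± 0.29 (edgeR adjusted p = 0.0432). Leaving out Wilmar-P replicate 1, Wilmar-P replicate 2 or laboratory replicate 2 gave 0 members higher, and leaving out laboratory replicate 1 gave 9. With scaling to coding counts, which lowered the median of all genes to -0.27, the member median was 0.22 and 0 members passed.

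Of the length of rps502, 40.7% lies in stretches of 50 bases found elsewhere in the genome, and the part of these shared stretches in the difference was not tested. In the annotation rps502 (chromosome I, 3496388 to 3497435, - strand, ASM294v2) overlaps odc1 on the other strand. For uL1 the minor copy rpl102 had 337 and 332 CPM in Wilmar-P, against 353 and 390 in the laboratory strain, the lowest log2 fold change of the members at -0.15. Low values were also those of rpl22 (0.05), rps901 (0.13) and rpl902 (0.16), and the next highest after rps502 were rpl13 (1.02), rps2 (0.99), rps601 (0.98) and rpl401 (0.96), none of them past the test.

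Within Wilmar-P, molasses against glucose gave 0 of 60 members by edgeR, beside 1.24% of protein-coding genes called in either direction, and 9 at an unadjusted p below 0.05, all higher, beside 8.32% of protein-coding genes higher at that p. DESeq2 called 2, rpl401 and rps2, both higher. The highest log2 fold change was that of rps2, with 5769 and 5876 CPM in molasses, against 1883 and 2389 in glucose (1.24 ± 0.30, edgeR adjusted p = 0.0905), and the next were rpl401 (1.18 ± 0.34) and rps1201 (1.08 ± 0.37), for eS12. They were followed by rpl802 (0.86) and rpl2401 (0.84), and the lowest were rps1101 (-0.25), rpl2002 (-0.24), rps7 (-0.20), rpl1702 (-0.18) and rpl101 (-0.14). The member median was 0.32, against 0.03 over all protein-coding genes, and -0.00 with scaling to coding counts, when the median of all genes was -0.29. The labels give no shift between media for the molasses cultures, so the medium and the culture history cannot be told apart here.

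The 83 other cytoplasmic ribosomal protein genes, read in the same fits, had 16 lower (19.3%) and 0 higher in starved over glucose Wilmar-P, with a median of -0.55, and 18 lower (21.7%) and 0 higher in Wilmar-A, with a median of -0.61. Of all protein-coding genes 13.9% and 18.6% were called lower and 16.1% and 16.2% higher. The lowest of the 83 was rpl1603, with 1.7 and 7.8 CPM in starved Wilmar-P, against 103.5 and 105.4 in glucose, and 2.5 and 3.5 CPM in starved Wilmar-A, against 95.5 and 65.6. The next was rps2601, with log2 fold changes of -2.10 and -2.16. The highest was rps1202, with 6235 and 4361 CPM in starved Wilmar-P, against 1762 and 3559 in glucose, a log2 fold change of 0.78 that did not pass the test. With these genes added, all cytoplasmic ribosomal protein genes took 13.1% to 30.1% of protein-coding counts. Of 76 mitochondrial ribosomal protein genes, which serve the ribosome inside mitochondria, 6 (7.89%) were called higher and 2 (2.63%) lower in Wilmar-P, with a median of 0.07. In Wilmar-A 5 (6.58%) were called higher and 0 lower, with a median of 0.02. These shares were below those of all protein-coding genes in both directions.

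The 7 cytoplasmic elongation factor genes, whose products work on the ribosome, had medians of 0.35 in starved Wilmar-P and 0.45 in Wilmar-A. The edgeR test called 0 of them, with 2 and 3 higher at an unadjusted p below 0.05, beside 24.7% and 26.5% of protein-coding genes. A list of 9 genes covered regulators of ribosomal protein genes and TOR signalling. In each isolate 1 of the 9 (11.1%) was called higher, beside 16.1% and 16.2% of protein-coding genes. That gene, gad8, a kinase downstream of TOR complex 2, had 315 and 268 CPM in starved Wilmar-P, against 83 and 118 in glucose, and 385 and 424 CPM in starved Wilmar-A, against 89 and 148. It rose by 1.25 ± 0.27 on the log2 scale in Wilmar-P (edgeR adjusted p = 0.00470) and by 1.77 ± 0.25 in Wilmar-A (adjusted p = 0.000368). None of the other 8 passed both thresholds, although in Wilmar-P sck2 (-0.90, adjusted p = 0.00363) and fhl1 (0.77, adjusted p = 0.0208) passed that on p alone, and so did sck1 (0.63, adjusted p = 0.0336) in Wilmar-A.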

How the data were processed

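The authors trimmed reads with cutadapt 1.9.1, aligned them with TopHat2 2.1.1 to ASM294v2 and counted them with featureCounts 1.5.2, per the labels' processing notes and the study's methods. Reads overlapping several genes were counted for each, reads mapping to several places were not, and stranded libraries were counted by strand. The deposited table holds raw counts, 7019 genes by 16 libraries. Here edgeR 4.0.16 (R 4.3.3) was run on those counts with TMM scaling and filterByExpr (6662 genes, 5073 of them protein-coding), with terms for the 8 groups and the labelled strandedness (7 residual degrees of freedom). A call needed more than 1 log2 unit of change in either direction with an adjusted p under 0.05, and DESeq2 1.42.0 was an alternative. The steps were tested on simulated data. Protein-coding genes were those of RefSeq ASM294v3, to which 6845 identifiers matched and 174 did not. The members and lists were chosen with earlier results of these data known. Named genes were the 5 highest and 5 lowest members by log2 fold change in each starved over glucose comparison and each molasses comparison, called members elsewhere up to 5, the extremes per kilobase, and pairs differing by over 1. At 13246648 to 18164249 counts per library every member passed the filter, and errors are those of the fit over 2 replicates a group. The values of 1 member are not reported here.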

Additional observations from a re-analysis of the deposited data

How the results depend on the processing

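The direction of every called named gene held under every alternative run. Of 638 values of named genes in other settings 589 stayed on their side of the threshold, 46 lost a call and 3 gained one. With 1 replicate left out 150 of 236 stayed, 84 lost a call and 2 gained one. Both totals include rpl2402 in every comparison, although it was called in none. It could not lose a call, and the gains are all its own, so calls were lost in a larger part of the values of called genes. Members lower in starved over glucose numbered 10 in Wilmar-P and 15 in Wilmar-A. They numbered 22 and 32 with scaling to coding counts, and 6 in Wilmar-P with no strandedness term. Starved over glucose-deficient gave 8 and 22. With scaling to coding counts Wilmar-P gave 13, with no strandedness term Wilmar-P gave 5 and Wilmar-A 12, and with only the groups compared Wilmar-P gave 1. DESeq2 called 1 member higher in Wilmar-A glucose-deficient over glucose, against 0. For Wilmar-P over laboratory molasses, with 1 member higher, a floor of 10 counts in each library, scaling to coding counts, only the groups compared and no strandedness term each gave 0, and DESeq2 and Wilmar-A glucose replicate 1 coded as unstranded gave 2. For Wilmar-P molasses over glucose, with 0, the last 2 settings gave 2 and only the groups compared gave 3.

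Leaving out 1 replicate gave 0 to 17 members lower in Wilmar-P starved over glucose and 7 to 22 in Wilmar-A, 0 to 15 in Wilmar-P starved over deficient and 4 to 14 in Wilmar-A, 0 to 9 higher in Wilmar-P over laboratory molasses, 0 to 7 higher in Wilmar-A deficient over glucose, 0 to 2 higher in Wilmar-A starved over glucose and 0 to 1 higher in Wilmar-P over Wilmar-A in glucose.

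Replicate numbers were shared by all groups, but with 2 replicates they were not treated as pairs. The difference between the 2 replicates of a group, over protein-coding genes, was correlated between groups. In Wilmar-P and Wilmar-A it correlated at 0.82 and 0.88 between deficient and glucose, and at 0.03 and 0.11 between starved and glucose. Between the isolates it correlated at 0.32 starved, 0.94 deficient and 0.92 with glucose. The first replicates of the glucose and deficient groups are the libraries with the high non-coding share, and the part of this in the correlations was not tested. With the replicate block 8 members were lower in starved over glucose Wilmar-P and 15 in Wilmar-A, 8 and 15 in starved over deficient, 0 higher in Wilmar-P over laboratory molasses, and 0 called in Wilmar-P over Wilmar-A in each medium.

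With all cytoplasmic ribosomal protein genes the mean share of coding counts was 17.6% starved, 22.5% deficient, 26.4% glucose and 27.6% molasses in Wilmar-P, 14.0%, 21.6% and 24.5% in Wilmar-A, and 24.2% in the laboratory strain, and, with the groups in that order, the ratio of large to small subunit counts was 1.13, 1.31, 1.32 and 1.32, then 1.11, 1.30 and 1.31, then 1.30. Without rps13 the ratio was 1.63, 1.77, 1.78 and 1.84, then 1.56, 1.72 and 1.74, then 1.85. Per kilobase it was 1.68 in Wilmar-P molasses and 1.28 in starved Wilmar-A. Of all counts the members took 12.2% in deficient and 14.2% in molasses Wilmar-P, 11.7% in deficient Wilmar-A and 12.1% in the laboratory strain. Restricting the total to nuclear genes changed nothing by construction, since it already was nuclear. Each group had 2 replicates, and what depth alone would limit was not tested.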

Other observations

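Both starved libraries lay below both glucose libraries for 19 members in Wilmar-P and 37 in Wilmar-A, and above them for 6 members in each isolate. Over all protein-coding genes tested the shares were 36.6% below and 34.0% above in Wilmar-P and 40.04% below and 35.7% above in Wilmar-A.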
